A study of Canis lupus familiaris with 10 samples.

Results

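Cytosolic ribosomal proteins are the protein parts of the ribosome that translates nuclear-encoded mRNA, and 41 of the 19856 genes counted in visceral adipose tissue (VAT) of dogs were followed here as that family. The members were chosen by symbol from the study's own list of differentially expressed genes and matched to the count tables by Ensembl identifier, so every member had already been selected for a difference between the groups compared below. They comprised 20 genes of the large subunit and 21 of the small subunit. All 41 members passed the low-count filter of 10 reads in at least 1 sample, as did 13577 genes in all. The VAT came from laparotomies of 5 adult Beagles (3 male, 2 female), the first ahead of treatment (Pre-ACTH) and the second once tetracosactide had been given for 25 weeks (Post-ACTH). Tetracosactide is a synthetic analog of adrenocorticotropic hormone (ACTH) that drives the adrenal gland to release cortisol. It was given through osmotic pumps changed every 4 weeks, starting at 1.3 to 1.95 μg/kg/day and ending at 6 to 10 μg/kg/day. Each dog was its own control, and no untreated dogs were sampled at 25 weeks, so the treatment and the time between the operations cannot be told apart. Numbers 1 to 5 stand for the animals sorted by ID, where dogs 1, 4 and 5 are male and dogs 2 and 3 female.

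A ribosome joins a small subunit, which binds the mRNA and reads its codons, with a large subunit, which forms the peptide bonds. Cells make the proteins of both subunits in matched amounts, and their mRNAs belong to the TOP class, which starts with a run of pyrimidines and whose translation is controlled by mTOR through the RNA-binding protein LARP1. Ribosomal protein mRNAs are among the most abundant in most tissues. In fat, protein synthesis responds to insulin and to glucocorticoids, the hormone class of cortisol. Values below are normalized counts, that is reads per gene divided by a library size scaled with edgeR's TMM factors and multiplied by the mean library size.

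Libraries held between 8728330 and 14867529 counted reads, and the smallest was the Pre-ACTH library of dog 3. All 45 pairs of libraries differed by more than counting noise, the lowest ratio of chi-square to degrees of freedom being 18.1. Of the tested genes, 102 were higher and 166 lower in Post-ACTH at an adjusted p (FDR) under 0.01, the study's threshold, when edgeR's quasi-likelihood test was run with a term for each dog. A gene past that threshold is referred to as called. The least covered member, RPL22L1, had at least 149 reads in every library, while every other member had at least 1671.

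The members took a larger share of the library after treatment in all 5 dogs. In Pre-ACTH they held 2.44%, 2.39%, 3.04%, 2.45% and 2.53% of all counted reads in dogs 1 to 5. In Post-ACTH the shares were 3.09%, 3.34%, 3.77%, 3.81% and 3.99%. Each Post-ACTH share lay above every Pre-ACTH share, but the Pre-ACTH library of dog 3 came within a short distance of the Post-ACTH library of dog 1. The mean share was 2.57% ± 0.267 (SD, n = 5) before and 3.60% ± 0.374 (SD, n = 5) after treatment, and the ratio within a dog averaged 1.41 ± 0.158 (SD, n = 5). By dog the ratio was 1.27, 1.40, 1.24, 1.55 and 1.58, so it was smallest in dogs 3 and 1 and largest in dogs 4 and 5. The 95% Wilson intervals of the single shares reached at most 0.0114 percentage points to either side and cover counting error only. These shares use no scaling factor. In bulk tissue, a change in the number of cells that express a gene and a change in RNA per cell cannot be told apart.

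**Figure D1:**
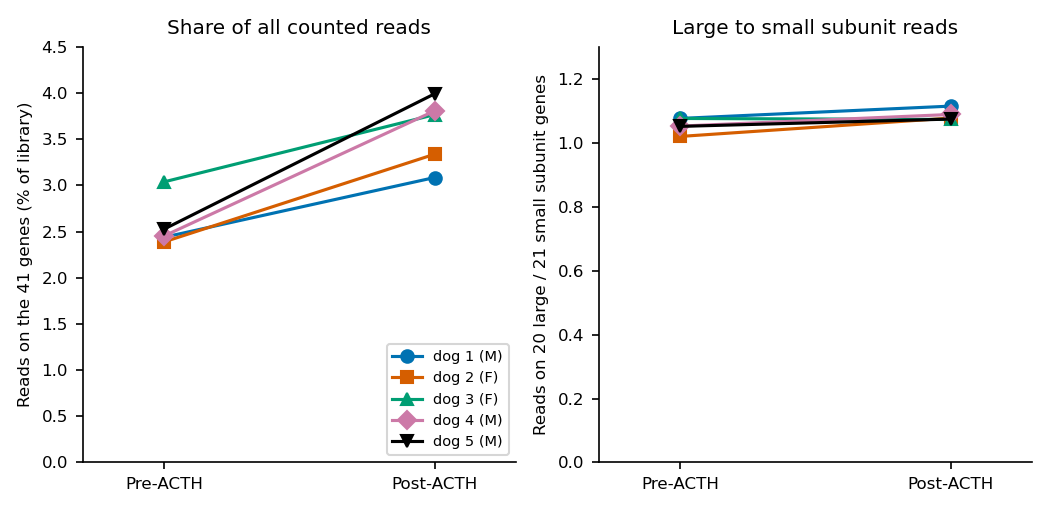
Left, share of all counted reads (in percent) that fell on the 41 ribosomal protein genes in each dog before and after tetracosactide; right, reads on the 20 large subunit genes divided by reads on the 21 small subunit genes. Lines join the samples of 1 dog: all 5 shares go up, from 2.39% to 3.04% before to 3.09% to 3.99% after, while the ratio stays between 1.02 and 1.12.

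Read gene by gene, all 41 members were higher in Post-ACTH in all 5 dogs, beside 13.4% of all tested genes. The fitted log2 fold changes ran from 0.36 to 0.90 with a median of 0.50, a 1.41-fold change, beside a median of -0.0021 over all tested genes. In 12 members the fitted change reached 1.5-fold. The median over the members was 0.37, 0.51, 0.38, 0.63 and 0.65 in dogs 1 to 5, on average 0.51 ± 0.134 (SD, n = 5). Of the members, 6 were called (14.6%), 4 of the small and 2 of the large subunit, beside 0.751% of all tested genes called in that direction, and 0 were called lower, beside 1.22%. At FDR under 0.05 it was 40 members (97.6%) beside 4.84% of all genes, and RPS4X was the exception (adjusted p = 0.0556, edgeR's quasi-likelihood test). The study selected the members with DESeq2 from the same samples, so these counts describe the chosen genes and nothing is read from them. Leaving out dog 1 left 5 called, while 116 of the 13408 genes tested in that fit were called higher. Leaving out dog 2, 3, 4 or 5 left none at FDR under 0.01, 6, 28, 23 and 9 at FDR under 0.05 (beside 1.14%, 1.99%, 2.61% and 1.74% of all genes tested in those fits) and all 41 at an unadjusted p under 0.05 (beside 10.6% to 11.8%), all in the higher direction and with the same edgeR test. With DESeq2, as run here, all 41 were called beside 3.68% of all genes. With total counts in place of the TMM factors 3 were called, while 93 of the 13577 tested genes were called higher.

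**Figure D2:**
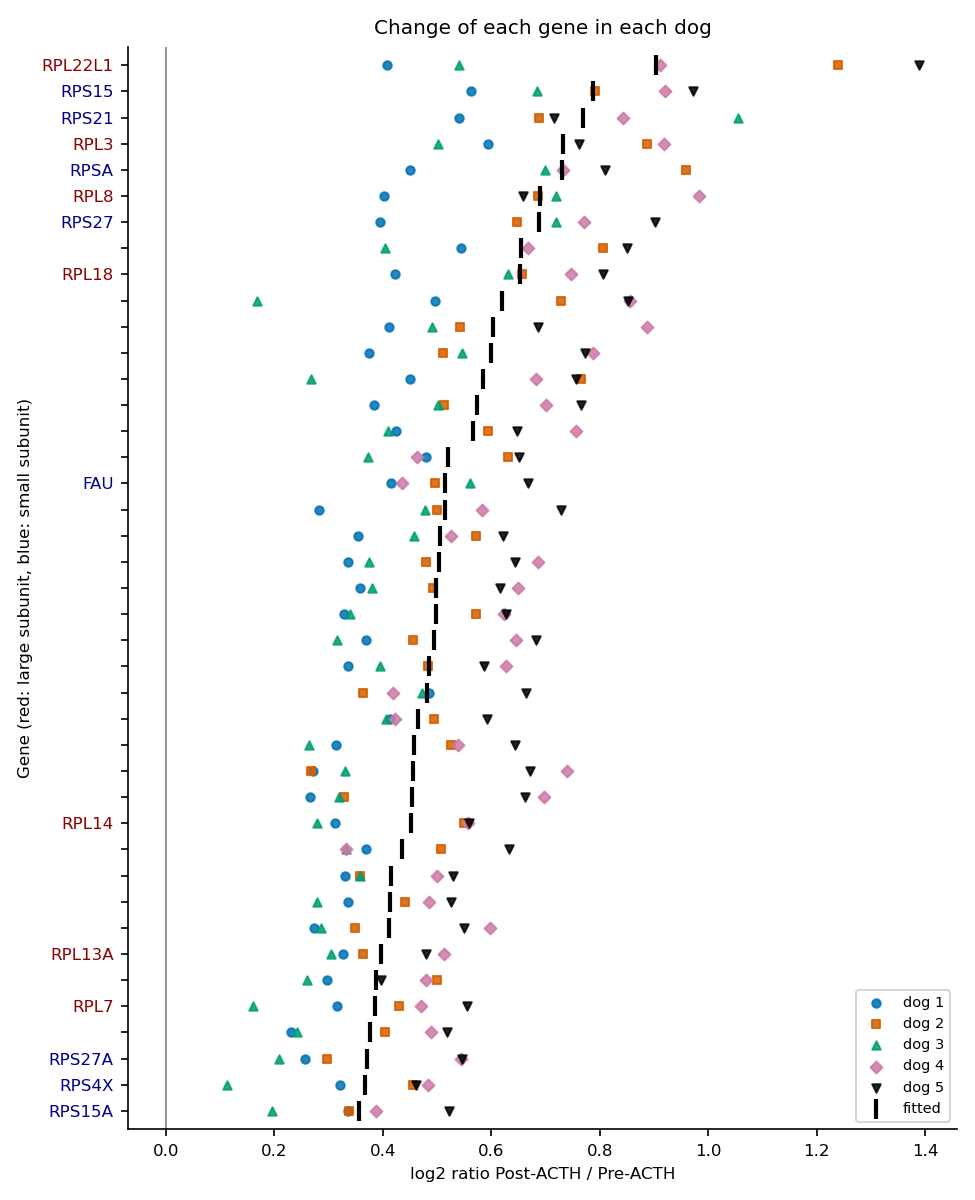
Log2 ratio of Post-ACTH to Pre-ACTH (log2 CPM, prior count 2) for each of the 41 genes in each of the 5 dogs, with the fitted fold change as a black bar, ordered by that change and labelled for the genes described singly. Every point lies right of 0. Dog 1 has the lowest ratio in 21 genes and dog 3 in 18, while dog 5 has the highest in 23 and dog 4 in 14.

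The small subunit held the largest of the called changes. RPS15 (ENSCAFG00000023247), a protein of the small subunit's head that reaches toward the decoding site, had normalized counts of 3262, 2914, 3201, 2931 and 3078 in Pre-ACTH (dogs 1 to 5). Post-ACTH counts were 4819.8, 5048, 5148, 5549.9 and 6039. The groups did not overlap, and the difference of the means, 3077 ± 156 against 5321 ± 481 (SD, n = 5), exceeded the spread between dogs. Its fitted log2 change was 0.79 (SE 0.09), with ratios from 0.56 in dog 1 to 0.97 in dog 5. RPSA (ENSCAFG00000005101), which sits on the small subunit and is also known as the precursor of the laminin receptor, had counts of 2296, 2186, 2449, 2364 and 2467 before treatment. Afterwards they were 3139.8, 4250.1, 3979, 3929 and 4325. Dog 1 stood lowest after treatment, still above every Pre-ACTH value, and the fitted change was 0.73 (SE 0.09).

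RPS21 (ENSCAFG00000012676), one of the shortest ribosomal proteins, was the one member in which dog 3 held the lowest Pre-ACTH count. Its Pre-ACTH counts were 3064, 3016, 2353, 2779 and 3036 and its Post-ACTH counts 4459.7, 4858, 4889, 4984 and 4990.0. With 1.05 dog 3 also had the largest log2 ratio of any dog, against 0.54 in dog 1. The fitted change was 0.77 (SE 0.09). RPS27 (ENSCAFG00000017386), a zinc-finger protein of the small subunit, had 4802, 4505, 4840.3, 4445 and 4625 normalized counts before and 6315, 7062, 7967, 7585 and 8649 after treatment. Its Pre-ACTH values lay between 4445 and 4840.3, a narrow range beside the Post-ACTH spread, and the fitted change was 0.69 (SE 0.10).

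In the large subunit, RPL3 and RPL18 were called. RPL3 (ENSCAFG00000001346), which lies close to the peptidyl transferase centre where peptide bonds form, had Pre-ACTH counts of 11760.2, 11767, 14977, 12136 and 12799. In Post-ACTH they were 17745, 21764, 21209, 22938 and 21691. Dog 3 was highest before treatment and dog 1 lowest after it, and the groups did not overlap. The log2 ratios of RPL3 were 0.59, 0.89, 0.50, 0.92 and 0.76 in dogs 1 to 5. RPL18 (ENSCAFG00000003967), another large subunit protein, had counts of 5907, 5938, 6361, 5949.6 and 5829.7 before and 7916, 9369, 9857, 9992 and 10189 after treatment, a fitted change of 0.65 (SE 0.09). RPL8 (ENSCAFG00000001677), the other protein at the peptidyl transferase centre that the study plotted, was not called although its change lay between theirs. Its counts were 12265, 11786, 11566, 10203 and 11964 in Pre-ACTH and 16205, 18972, 19043, 20179 and 18897 in Post-ACTH, with a fitted change of 0.69 (SE 0.11) (adjusted p = 0.0107, edgeR's quasi-likelihood test).

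RPL22L1 (ENSCAFG00000014955) had the largest fitted change and by far the fewest reads of all members. It encodes a paralog of the large subunit protein RPL22. Its normalized counts were 194, 156, 246, 213 and 129 in Pre-ACTH. In Post-ACTH they were 258, 371, 359, 403 and 342. The fitted log2 change was 0.90 (SE 0.16), the SE being the widest among the members, and the dogs spanned ratios of 0.41 (dog 1) to 1.39 (dog 5). It was not called (adjusted p = 0.0151, edgeR's quasi-likelihood test). Without RPL22L1 the median of the other 40 members was likewise 0.50.

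**Figure D3:**
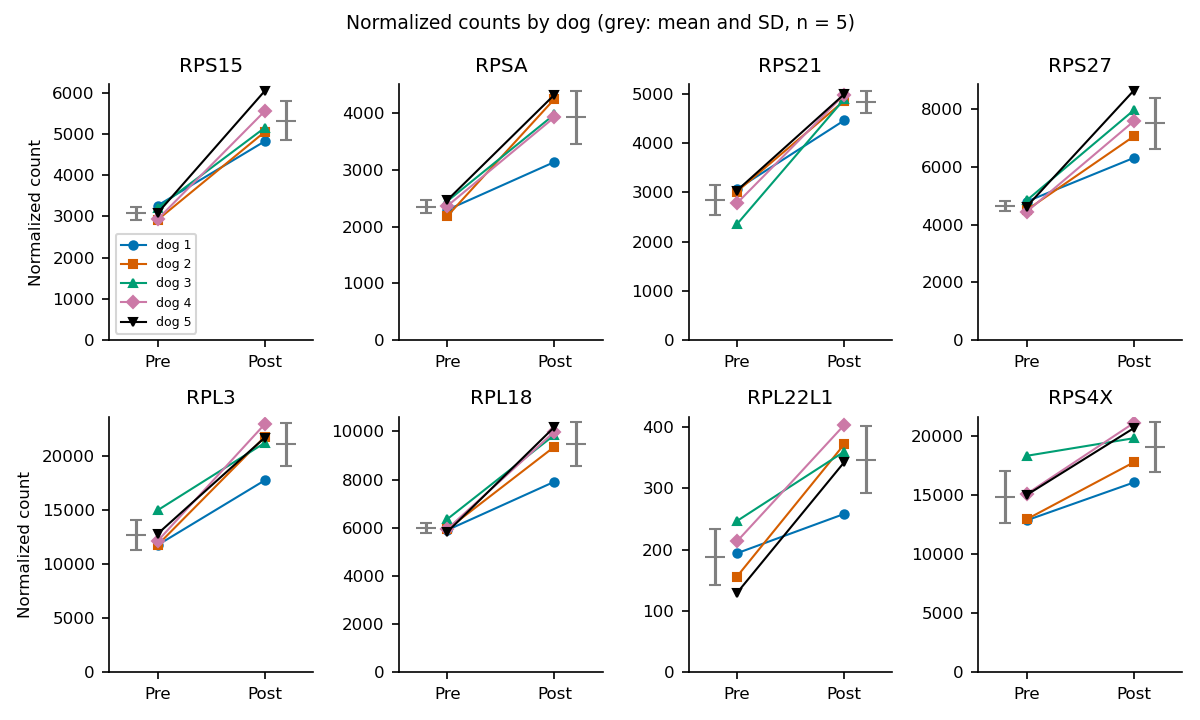
Normalized counts of the 6 called genes (RPS15, RPSA, RPS21, RPS27, RPL3 and RPL18), of RPL22L1 with the largest change and of RPS4X, before and after tetracosactide. Lines join samples of 1 dog, and grey marks give the mean and SD (n = 5). The groups are apart in all panels but that of RPS4X, where the Pre-ACTH value of dog 3 (18348) exceeds the Post-ACTH values of dogs 1 and 2.

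At the other end stood members whose change was smallest and whose groups overlapped. RPS15A (ENSCAFG00000018174), of the small subunit, had counts of 8582, 8490.1, 11014, 9936 and 9306 in Pre-ACTH and 10836, 10728, 12612, 13007 and 13373 in Post-ACTH, a fitted change of 0.36 (SE 0.09). RPS4X (ENSCAFG00000017151), which is encoded on the X chromosome, had 12882, 12970.0, 18348, 15114 and 15027 before and 16090.1, 17799, 19842, 21132 and 20693 after treatment, with 0.37 (SE 0.10). For RPS27A (ENSCAFG00000023471), made as a fusion with ubiquitin, the values were 6559, 7011, 8186, 6954 and 6778 and then 7836, 8610.2, 9462, 10140.0 and 9899.7, with 0.37 (SE 0.09). In all of these the overlap came from the Pre-ACTH library of dog 3. RPL7 (ENSCAFG00000008021), an RNA-binding large subunit protein, showed the same, with Pre-ACTH counts of 11292, 10822, 14474, 11567 and 11026. Its Post-ACTH counts were 14052, 14586, 16180.0, 16027 and 16203, so the 14474 of dog 3 exceeded the Post-ACTH value of dog 1, and the fitted change was 0.39 (SE 0.10).

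The 26 members whose counts are not listed gene by gene lay between these ends, from 0.38 (RPS6) to 0.65 (RPL9) in the fitted log2 change and from 0.17 to 0.89 in single dogs. Their mean normalized counts over the 10 samples ran from 4484 to 17034. All of them passed FDR under 0.05 in edgeR's quasi-likelihood test, beside 4.84% of all tested genes in the higher direction. None of them passed FDR under 0.01, because every called member is among those listed. The groups overlapped in 4 of the 26.

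Counted over the family, the 5 Post-ACTH values lay above all 5 Pre-ACTH values in 33 of 41 members (80.5%), beside 4.30% of all tested genes. In the other 8, the Pre-ACTH library of dog 3 held the highest Pre-ACTH value, and without dog 3 none of the 41 overlapped. That library was the highest of the Pre-ACTH group in 35 members and also the smallest of all libraries by read total. The part of library size in this was not tested. After treatment, dog 1 was lowest in 36 members and dog 5 highest in 24. Dog 3 before and dog 1 after treatment thus held the same place in most members. The SD of a member's log2 ratio between dogs was 0.156 (median of the members), less than the 0.305 of all tested genes. The median normalized count of all tested genes, 265, was far below the 9463 of the members. A call in these same 5 dogs also favours genes with a small spread between dogs, so the lower SD is not independent of that choice.

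The dogs also ranked the members alike. Over the 41 genes, Spearman's rho between the log2 ratios of 2 dogs averaged 0.61 over the 10 pairs of dogs, from 0.39 for dogs 1 and 4 to 0.73 for dogs 1 and 2. Over all tested genes the same average was 0.36, with a range of 0.0717 to 0.48. These averages do not compare like with like. The median normalized count was 9463 in the members and 265 in all tested genes, and the members were selected in these same dogs. The part of either in the higher average was not tested. No library is shared between the dogs, but genes are not independent replicates and the coefficients are given as descriptions. RPS15, RPSA and RPL3 thus stood toward the top of the order and RPS15A, RPS4X and RPS6 toward its foot in most dogs. RPS6, the substrate of the S6 kinases downstream of mTOR, had a fitted change of 0.38 (SE 0.09) and RPS3, which lines the mRNA entry channel, one of 0.39 (SE 0.09).

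The medians of the subunits lay close together. The median log2 fold change was 0.51 over the 20 large subunit genes (range 0.39 to 0.90) and 0.50 over the 21 small subunit genes (range 0.36 to 0.79). Large minus small, the difference of the medians was 0.0282, 0.0491, -0.0424, 0.0044 and 0.0084 in dogs 1 to 5, on average 0.0095 ± 0.0341 (SD, n = 5). The spread between dogs was thus wider than the difference. In reads, the large subunit genes went from 1.32% ± 0.146 to 1.87% ± 0.185 of the library and the small subunit genes from 1.25% ± 0.122 to 1.73% ± 0.189 (SD, n = 5 each). The ratio of large to small subunit reads was 1.08, 1.02, 1.08, 1.05 and 1.05 in Pre-ACTH. In Post-ACTH it was 1.12, 1.08, 1.07, 1.09 and 1.07, higher within each dog but dog 3. The ranges of the groups overlapped. The Pre-ACTH ratios of dogs 1 and 3 (both 1.076) lay above the Post-ACTH ratios of dogs 3 (1.073) and 5 (1.075). Within dogs it changed by a factor of 1.03 ± 0.0218 (SD, n = 5). Both subunits were selected by the same comparison, so no test was made of their difference.

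Within the family the genes did not all move by the same amount, and the share of the members' reads that each held shifted a little. RPL13A (ENSCAFG00000029892), a large subunit protein that is also a common reference gene in quantitative PCR, took the most reads. Its counts were 19358, 19305, 22456, 19141 and 19590.4 in Pre-ACTH and 24293, 24825, 27743, 27302 and 27304 in Post-ACTH, with a fitted change of 0.40 (SE 0.10). Its share of all member reads went from 6.07% to 5.61% (means of 5 dogs). That of RPL3 went from 3.85% to 4.49%, that of RPL8 from 3.53% to 3.98% and that of RPS15 from 0.938% to 1.13%. The order of the members by mean reads was almost the same before and after treatment (Spearman's rho 0.99 over 41 genes).

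Taken over the whole family, the number of reads on a member and its change were weakly related at most. Over the 41 members Spearman's rho between mean normalized count and log2 fold change was -0.15, and it was -0.0859 without RPL22L1. It was 0.0902 in the large subunit (20 genes) and -0.36 in the small subunit (21 genes), and 0.18 over all tested genes. These coefficients run across genes and carry no p. A gene with few reads needs a larger change to be called. The members were selected by a call in these same samples, so their coefficients are not independent of that choice. No transcript lengths were used here, so read numbers stand for depth and cannot rank the genes by level. RPL13A and RPS4X, both among the best covered members, lay near the bottom of the range. Of the least covered, RPL14 (ENSCAFG00000005138), of the large subunit, had 2683 ± 312 in Pre-ACTH and 3669 ± 412 in Post-ACTH and a change of 0.45 (SE 0.08), against the large changes of RPSA and RPL22L1. FAU (ENSCAFG00000013934), which encodes RPS30 fused to a ubiquitin-like protein, had 4912 ± 298 in Pre-ACTH and 7030.2 ± 609 in Post-ACTH and a change of 0.51 (SE 0.08), unlike the smaller change of the other fusion gene, RPS27A.

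**Figure D4:**
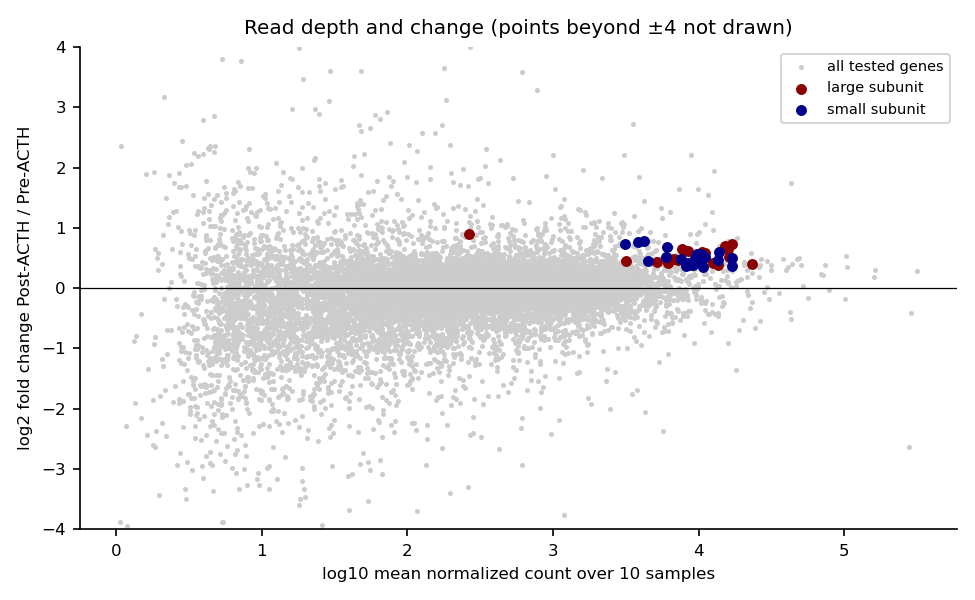
Fitted log2 fold change against the mean normalized count over the 10 samples (log10 scale) for all 13577 tested genes in grey, with the 20 large subunit genes in red and the 21 small subunit genes in blue. The members form a band between 0.36 and 0.79 among the well-covered genes, apart from RPL22L1, which lies at 0.90 and 267 normalized counts.

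The change was also compared between male and female dogs. Sex did not enter the choice of the members, but a call in these same 5 dogs favours genes whose change differs little between dogs, so the members' own counts in this test are not independent of that choice. In edgeR's quasi-likelihood test of the interaction of sex and treatment, no member and none of the 13577 tested genes passed FDR under 0.01 or under 0.05. At an unadjusted p under 0.05 it was 435 genes (3.20%) and 0 members, whose lowest unadjusted p was 0.266. The female change minus the male change had a median of -0.0897 over the members on the log2 scale (range -0.29 to 0.17), with a typical SE of 0.197, so differences of this size lay within the error. In 36 of 41 members it was below 0, beside 49.4% of all tested genes. The members share the same 5 pairs of libraries, so they are not 36 separate observations. The medians over the members were 0.37, 0.63 and 0.65 in the 3 males and 0.51 and 0.38 in the 2 females, which overlap.

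**Figure D5:**
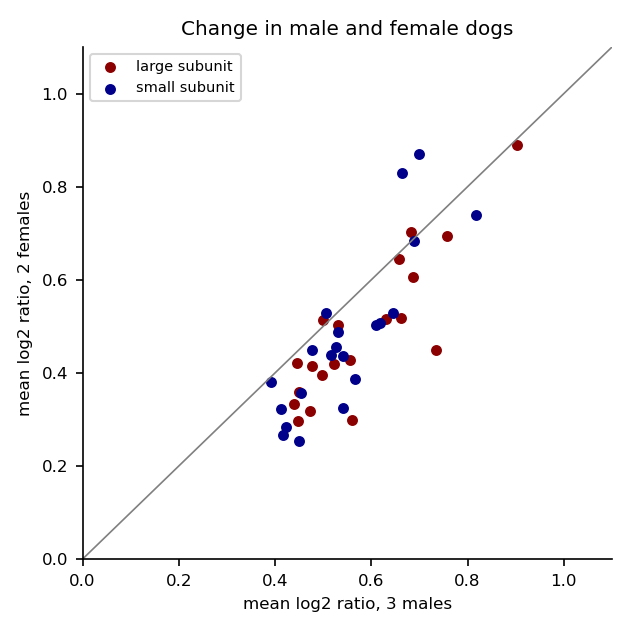
Mean log2 ratio of Post-ACTH to Pre-ACTH in the 3 male dogs against that in the 2 female dogs, 1 point per gene (red for large, blue for small subunit), with the line of equal change. Of 41 points, 36 lie on the male side of the line, and none of the differences passed the test.

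Of the 80 standard cytosolic ribosomal protein genes, 40 bear their symbol in the study's list, 19 of 47 for the large and 21 of 33 for the small subunit, with the paralog RPL22L1 as the 41st. Apart from a gene without a symbol that the list describes as ribosomal protein L4, the other genes of the family were not analysed here because the count tables give identifiers only. The rule's limit was the study's FDR under 0.01 in DESeq2. Closest to it in the DESeq2 fit made here were RPS27A (adjusted p = 0.0069), RPS4X (adjusted p = 0.0063) and RPS15A (adjusted p = 0.0045), the members with the smallest changes. Positions of the genes are not given in the count tables. Reads of ribosomal protein genes can also match near-identical processed copies elsewhere in the genome. How such reads were counted is not given in the sources used here, which leaves each member's own values uncertain.

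Other parts of the translation machinery that the study's list names were higher too. For initiation factors 5 of 35 listed genes bore a symbol there, their median log2 fold change being 0.45, and all 5 passed FDR under 0.05 but none FDR under 0.01 (edgeR's quasi-likelihood test). EIF4A1, the initiation helicase, had a change of 0.64 (SE 0.11), PABPC1, the poly(A)-binding protein, one of 0.45 (SE 0.08) and EIF5B, which joins the subunits, one of 0.47 (SE 0.10). Of elongation-related genes 2 of 9 were named, EEF2, the translocation factor, with 0.34 (SE 0.11) and TPT1 with 0.44 (SE 0.10), of which TPT1 passed FDR under 0.05. EEF2, TPT1 and PABPC1 are, like the ribosomal proteins, known TOP mRNAs. Of the mTOR and TOP regulators 2 of 17 were named, and EIF4EBP1, a repressor of cap-dependent initiation that mTOR inactivates, was called with a rise of 1.12 (SE 0.17) and counts of 393 ± 75.6 before and 850.4 ± 124 after treatment (SD, n = 5). Nucleolar assembly factors (5 of 47 named) had a median of 0.53, with 0.47 for NOP53, 0.55 for FBL, which methylates ribosomal RNA, and 0.55 for NOP2. Mitochondrial ribosomal proteins (3 of 79 named, MRPL37 and MRPL55 among them) had a median of 0.64. Of both groups none was called and all named passed FDR under 0.05. Of all tested genes, 0.751% were called higher and 4.84% were higher at FDR under 0.05. As all of these listed genes were named through the study's own calls, their direction is given by that choice.

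Markers of cell types were followed only where the study's list of differentially expressed genes names them. Each had thus been selected for a difference in these same samples, and its direction is given by that choice. Of 9 fibroblast markers 7 were named in the study's list, and all 7 were lower in Post-ACTH. Of these, 4 were called lower, beside 1.22% of all tested genes. Their summed normalized counts were 18588 to 42148 before and 6171 to 10580.2 after treatment, and none of the 7 was at 0 in any library. Of 12 adipocyte markers only LIPE, the hormone-sensitive lipase, was named, with 19596 to 25067 normalized counts before and 27688 to 33574 after treatment, so the tissue label could be checked against that marker alone. The 2 named mast cell markers of 6, CPA3 and MS4A2, had summed counts of 16.5 to 42.2 before and 0 to 3.22 after treatment, with CPA3 at 0 in 3 and MS4A2 at 0 in 2 Post-ACTH libraries. Of the 2, CPA3 was called lower. Of 6 mural markers 3 were named (summed 3067 to 3853 before and 2242 to 2795 after), and they differed in direction, with log2 fold changes of -0.74 for PDGFRB, which was called, -0.67 for NOTCH3 and 0.89 for MYH11. NOTCH3 was not lower in dog 1 (log2 ratio 0.0445) and MYH11 not higher in dog 5 (-0.37). Neither passed FDR under 0.05 in edgeR's quasi-likelihood test. Of 8 macrophage markers 2 were named (summed 855 to 1889 before and 511 to 1253 after), again in opposite directions, with -0.75 for CSF1R, the more abundant in reads, and 1.00 for C1QB, which was higher in all 5 dogs. CSF1R was not lower in dog 5 (log2 ratio 0.11) and did not pass FDR under 0.05 in the same test. Of the 9 genes listed for lymphocytes only PTPRC was named (202 to 499.9 before and 77.3 to 177 after). PTPRC is expressed by leukocytes in general, so it does not mark lymphocytes alone. Of 7 skeletal muscle markers CKM was named (35.9 to 212 before and 561 to 1844 after) and called higher, beside 0.751% of all tested genes. No endothelial, mesothelial or erythroid marker was named. Markers without a symbol in the study's list were not looked at, so whether they changed is not known here. The part of these cell types in the higher ribosomal protein counts was not tested.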

How the data were processed

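RNA-seq libraries were made from VAT of 5 dogs at 2 times. Per the labels and the study's methods, the authors trimmed the reads, aligned them to CanFam3.1 with STAR and deposited counts per Ensembl gene from featureCounts, without normalization. Versions, strand setting and treatment of multi-mapping reads are not given in the sources used here. The labels name a stranded mRNA kit, the study's methods ribosomal RNA depletion.

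From the counts, genes reaching 10 reads in 1 or more samples were tested in R 4.3.3 with edgeR 4.0.16 (TMM, glmQLFit, glmQLFTest), the dog as a block, Benjamini-Hochberg adjustment and FDR under 0.01. The SE is the fold change over the root of F. Log2 ratios used a prior count of 2. The fits were tested on simulated data. Alternatives were DESeq2 1.42.0, limma 3.58.1 (voom), other scalings, filters and thresholds, no block, and each dog left out.

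The animal IDs pair the samples. Deviations from the group means correlated by 0.274 on average within dogs (0.0772 to 0.412) and by -0.0678 between dogs.

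Members and gene lists were chosen with earlier results of these data known. Named with values were called members, the 2 largest and 2 smallest changes per subunit, the 3 best and 3 least covered, up to 5 with overlapping groups, RPL3, RPL8, FAU, RPS27A and RPL22L1. Some members that this rule picked are not reported here by name. RPS6 and RPS3 were added after their values were seen. Symbols came from the study's list (1079 of 1190 genes). The RefSeq table of another assembly matched 41 members by symbol. A list of the whole family by name could not be formed, because that table holds no Ensembl identifiers.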

Additional observations from a re-analysis of the deposited data

Results flagged for a closer look

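In 8 of 84 groups of 5 samples (each member and the summed share, in Pre-ACTH and in Post-ACTH), 1 sample stood far from the other 4 by Dixon's criterion at 95%. Chance gives about 5% of groups, and the groups are not independent, since the members were measured in the same libraries. In 7 of them it was the Pre-ACTH library of dog 3, at the high end. There the members held 3.04% of all reads, and the normalized counts were 8186 for RPS27A, 14474 for RPL7, 22456 for RPL13A, 9381 for RPS9, 8595 for RPL23 and 6361 for RPL18. The remaining one was RPS21 in Post-ACTH, where dog 1 was lowest with 4459.7.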

How the results depend on the processing

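The direction of the change and the size of the family's median held under every alternative run. The alternatives used the same samples in which the study selected the members with DESeq2. The members' direction, and their calls with DESeq2, are thus largely given by that choice. The median log2 fold change of the members ranged from 0.47 to 0.53 over all alternatives, and all 41 members stayed above 0 in each. The number of members called did not hold. Against 6 in the comparison reported, it was 3 with total counts, 41 with DESeq2, 13 with limma-voom and 13 without a low-count filter. It was 40 at FDR under 0.05 and 0 to 5 when 1 dog was left out (0 without each of dogs 2 to 5). With no replicate block, that is without pairing by dog, it was 13, and the 6 were among them. Of all 13577 tested genes, 102 were called higher in the comparison reported. With total counts 93 were called higher, with DESeq2 499, with limma-voom 137 and with no replicate block 112. Without a low-count filter 172 of 16833 genes were called higher, and 1 to 116 genes when 1 dog was left out. At FDR under 0.05 the share was 4.84%. Over all genes 268 were called in either direction. It was 280 with total counts, 1180 with DESeq2, 345 with limma-voom and 438 without a low-count filter. At FDR under 0.05 it was 1509, and with no replicate block 262. When 1 dog was left out it was 1 to 318 (318 without dog 1, 1 without dog 2, 12 without dog 3, 117 without dog 4, 23 without dog 5). Each fit without a dog has fewer samples, that without dog 1 included. The cause of these differences was not tested. Of 195 fold changes of the 15 named members under the 13 alternatives none changed sign, 29 no longer passed FDR under 0.01 and 16 came to pass it. The counts of the whole family and levels per coding length had been planned but were not run, as no table of names or lengths for these identifiers was used.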

Other observations

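One further gene of the study's list has no symbol there but is described as ribosomal protein L4, of the large subunit (ENSCAFG00000017309). Its normalized counts were 9107, 9746, 12363, 10336 and 10430.5 in Pre-ACTH and 11454, 13898, 14027, 15432 and 13916 in Post-ACTH (dogs 1 to 5). The Pre-ACTH value of dog 3 exceeded the Post-ACTH value of dog 1, as in the members with overlapping groups, and the log2 fold change was 0.40 (SE 0.10). It was left out of the family above because the members were chosen by symbol.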
